A study of Mus musculus with 10 samples.

Results

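Notch signalling runs between touching cells, and 10 of its genes were followed here in tracheal tissue of mice that had breathed chlorine gas. They are the receptors Notch1, Notch2 and Notch3, the ligands Dll1, Dll4, Jag1 and Jag2, and the target genes Hes1, Hey1 and Heyl, taken by name from 22180 genes measured. The array measured all 10. The samples came from 9-week-old male mice of the inbred strain FVB/NJ, with 5 exposed to chlorine at 235 ppm for 1 hr and examined 4 days later, and 5 not exposed. Tissue beneath the tracheal epithelium, labelled as mesenchyme, was cut from stained frozen sections by laser capture and combined over the sections of each mouse, and each mouse gave 1 array. No transgene or genetic alteration is named in the labels, and the comparison asks how the transcripts of this tissue differed while fibrotic lesions formed.

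A Notch receptor spans the cell membrane and is activated by a Delta-like or Jagged ligand on a neighbouring cell. Binding exposes the receptor to a metalloprotease of the ADAM family and then to the γ-secretase complex, which frees the intracellular domain. That domain joins the DNA-binding protein RBPJ and a Mastermind coactivator in the nucleus and switches on genes of the Hes and Hey families, which encode transcriptional repressors. In the airway epithelium Notch activity favours secretory over ciliated cells, and in vessel walls Dll4, Notch3 and Heyl are known for their roles in arterial and mural cells.

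Of these 10 genes, the targets Hes1 and Hey1 were lower in the exposed mice and none was higher. Hes1 was 1.72-fold and Hey1 1.63-fold higher in unexposed mice, while the third target, Heyl, had nearly equal means in both groups. No ligand and no receptor passed the test, although all 4 ligands and Notch2 had lower means after exposure and Notch1 and Notch3 had higher ones. A gene counts as changed at an adjusted p under 0.05 in limma, a linear model fitted to all 22180 genes with Benjamini-Hochberg adjustment over all of them. By that rule 4.97% of all genes were lower and 5.85% higher in exposed mice, so that 2 of 10 lower and 0 of 10 higher are small counts beside a broad response. Change fell below 0 for 7 of the 10 genes against 50.6% of all genes, and the median log2 change was -0.28 against -0.0035 over all genes. The count of 2 was not steady, because it was 0 in 7 of the 10 fits that left out 1 mouse (leaving out exposed 2, 4 or 5 or unexposed 1, 2, 3 or 4). In those 10 fits 3.26% to 6.34% of all genes were lower.

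**Figure D1:**
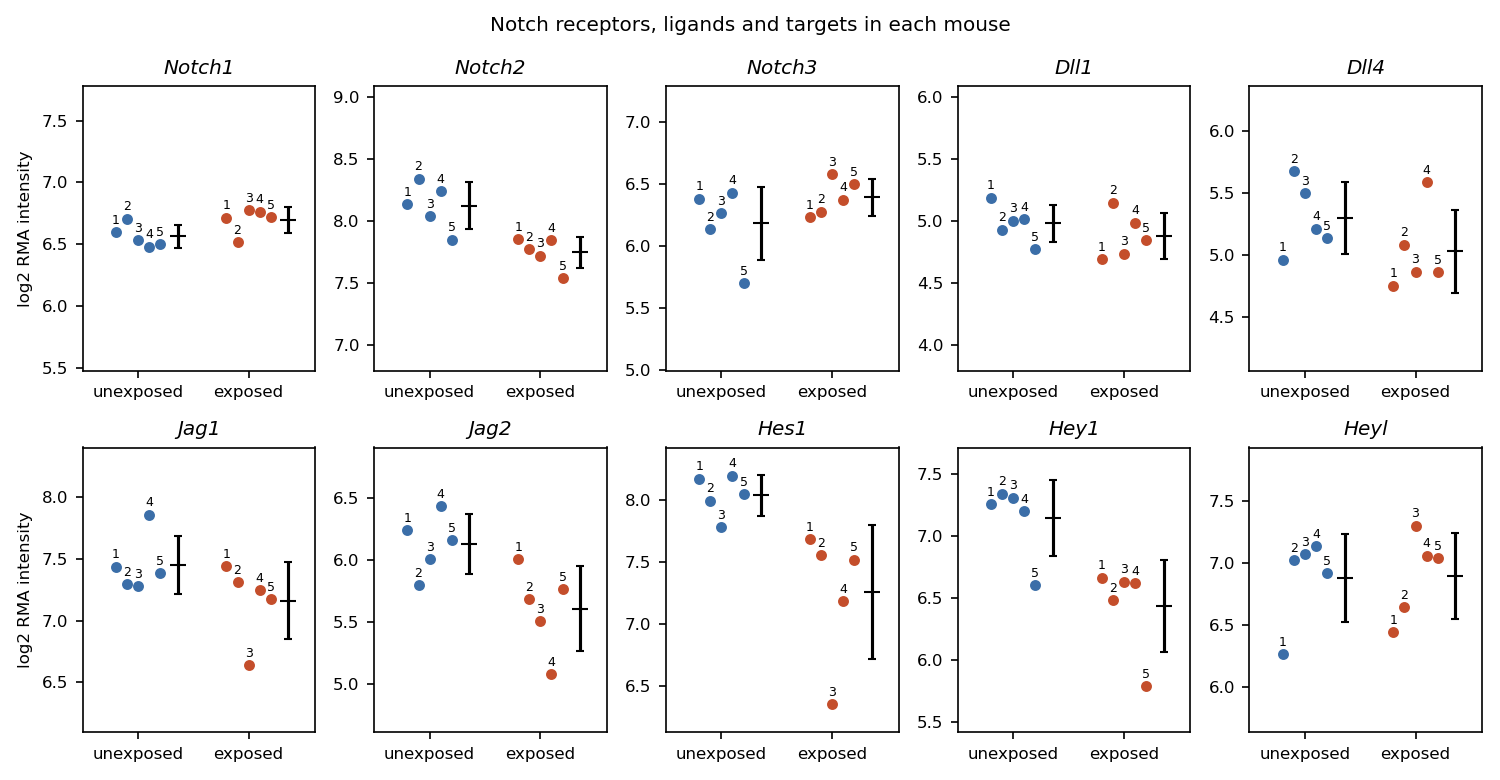
Log2 RMA intensity of each Notch gene in every mouse, with points numbered by mouse and black bars at the mean ± SD of 5 mice. Every panel spans the same log2 range around its own centre. All exposed mice lie below all unexposed mice for Hes1 alone, and exposed mouse 3 is lowest for Hes1 and Jag1.

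Hes1 encodes a repressor that holds progenitor cells back from differentiation and is a direct target of Notch in many tissues. Its log2 values in unexposed mice 1 to 5 were 8.17, 7.99, 7.78, 8.20 and 8.04. Exposed mice 1 to 5 had 7.68, 7.55, 6.35, 7.18 and 7.52. Every exposed mouse lay below every unexposed mouse, as was the case for 5.06% of all genes, and exposed mouse 3 stood lowest. The mean went from 8.04 ± 0.17 (SD, n = 5) to 7.26 ± 0.54 (SD, n = 5), a log2 change of -0.78 with a standard error of 0.22 and a 95% interval from -1.27 to -0.29 (limma adjusted p = 0.0454). Relabelling the 10 mice gave a two-sided exact permutation p of 0.00794 for Hes1, the smallest that 5 against 5 can give, or 0.0725 after adjustment over all genes. That adjusted value was the lowest of any gene, so no gene could pass 0.05 by this test. The fall of Hes1 passed in only 2 of the 10 fits with 1 mouse left out, those without exposed mouse 1 or 3 (limma adjusted p 0.0199 to 0.1 over the 10 fits). Without exposed mouse 3 its log2 change was -0.55. It also missed the threshold when array medians were made equal (adjusted p = 0.0532), and its sign held in all 19 alternatives.

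Hey1 encodes a repressor of the hairy-related family, known from blood vessel and heart development. Its log2 values were 7.26, 7.34, 7.31, 7.20 and 6.60 in unexposed mice 1 to 5. In exposed mice 1 to 5 they were 6.67, 6.48, 6.63, 6.62 and 5.79. The groups overlapped only through unexposed mouse 5, which stood below 3 of the exposed mice, and in each group the mouse numbered 5 was the lowest. The mean went from 7.14 ± 0.31 (SD, n = 5) to 6.44 ± 0.37 (SD, n = 5), a log2 change of -0.71 with a standard error of 0.19 and a 95% interval from -1.13 to -0.28 (limma adjusted p = 0.0377). By two-sided exact permutation the p for Hey1 was 0.0317, or 0.157 after adjustment over all genes. The call was kept in 3 of the 10 fits with 1 mouse left out, namely when exposed 1, exposed 3 or unexposed 5 was the mouse omitted (limma adjusted p 0.0152 to 0.0883 over the 10 fits). Without exposed mouse 5 the log2 change was -0.54, and its sign held in all 19 alternatives.

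Heyl, a relative of Hey1 that is expressed in vascular smooth muscle and pericytes, had log2 values of 6.26, 7.02, 7.07, 7.13 and 6.91 in unexposed mice 1 to 5. Those of exposed mice 1 to 5 were 6.44, 6.64, 7.30, 7.06 and 7.03. Low and high mice occurred in both groups, and the mouse numbered 1 was the lowest of each. The log2 difference was 0.01 with a 95% interval from -0.42 to 0.45 (limma adjusted p = 0.978). Its sign turned below 0 in 5 of the 19 alternatives.

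Among the receptors, Notch2 came nearest to the threshold. Its log2 values were 8.13, 8.34, 8.04, 8.24 and 7.85 in unexposed mice 1 to 5 and 7.85, 7.77, 7.72, 7.85 and 7.54 in exposed mice 1 to 5. Of the exposed mice, 4 lay below all unexposed mice, and exposed mouse 1 lay marginally above unexposed mouse 5. The log2 difference was -0.38 with a 95% interval from -0.62 to -0.13 (limma adjusted p = 0.0525). It passed in 6 of 19 alternatives, among them both filters that left out dim genes and so tested fewer genes (adjusted p 0.025 to 0.118 over the 19). Notch1, a receptor of epithelial and endothelial cells, had log2 values of 6.60, 6.71, 6.53, 6.48 and 6.50 in unexposed mice 1 to 5. In exposed mice 1 to 5 they were 6.71, 6.52, 6.78, 6.76 and 6.72. Of the exposed mice 4 stood above all unexposed mice and exposed mouse 2 among the lower ones, and the log2 difference of 0.13 did not pass (95% interval -0.06 to 0.33, limma adjusted p = 0.403). Notch3, the receptor of mural cells, had log2 values of 6.38, 6.13, 6.27, 6.43 and 5.70 in unexposed mice 1 to 5 and 6.23, 6.28, 6.58, 6.37 and 6.50 in exposed mice 1 to 5. The groups overlapped over most of their range, unexposed mouse 5 lay apart at the low end, and the log2 difference was 0.21 (95% interval -0.10 to 0.52, limma adjusted p = 0.414).

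The Jagged ligands gave lower means in exposed mice without passing the test. Jag2, a ligand of basal airway cells that presents the signal to neighbouring progenitors, had log2 values of 6.24, 5.80, 6.005, 6.44 and 6.16 in unexposed mice 1 to 5. In exposed mice 1 to 5 they were 6.005, 5.68, 5.50, 5.08 and 5.76. Of the exposed mice, 4 lay below all unexposed mice, exposed mouse 4 lowest, and exposed mouse 1 lay within the unexposed range. The log2 difference of Jag2 was -0.52 with a 95% interval from -0.90 to -0.14 (limma adjusted p = 0.0808), and it passed in 2 of 19 alternatives (adjusted p 0.0341 to 0.174). Jag1, a ligand of both epithelium and vessel wall, had log2 values of 7.43, 7.29, 7.28, 7.86 and 7.38 in unexposed mice 1 to 5 and 7.44, 7.31, 6.64, 7.25 and 7.17 in exposed mice 1 to 5. Exposed mice 1 and 2 stood within the unexposed range, and exposed mouse 3 lay apart at the low end and unexposed mouse 4 at the high end. The log2 difference of Jag1 was -0.29 (95% interval -0.64 to 0.07, limma adjusted p = 0.319), or -0.16 without exposed mouse 3 and -0.18 without unexposed mouse 4.

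The Delta-like ligands had values close to the array medians of 5.10 to 5.18, and with no scanner files in use here it is not known whether such signals stood above background. Dll4, the ligand of arterial and sprouting endothelium, had log2 values of 4.96, 5.68, 5.50, 5.21 and 5.14 in unexposed mice 1 to 5 and 4.75, 5.08, 4.86, 5.59 and 4.86 in exposed mice 1 to 5. The groups overlapped, with exposed mouse 4 among the highest of all 10 mice, and the log2 difference was -0.27 (95% interval -0.66 to 0.13, limma adjusted p = 0.412). Dll1, a ligand that is also expressed in differentiating epithelial cells, ranged from 4.78 to 5.19 in unexposed and from 4.69 to 5.15 in exposed mice, and the ranges covered each other almost fully. Its log2 difference was -0.10 (95% interval -0.35 to 0.15, limma adjusted p = 0.661). Dll1 was the only one of the 10 genes with more than 1 probe set, and its 2 probe sets gave -0.10 each.

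Stretches of sequence upstream of ligand and receptor genes are shown because proteins of the Hes and Hey families bind short DNA motifs, and the transcripts of 2 members, Hes1 and Hey1, fell. The RefSeq table of promoter windows (GRCm38.p6, 250 bases before to 50 after the start of transcription) held 8 windows for 7 of the 10 genes, Dll1 having 2; Hes1, Hey1 and Heyl were not matched. Each window was searched on both strands for GTGGGAA, a site of RBPJ, for CACGCG, a class C site of HES proteins, and for CACGTG, an E-box of HEY proteins that reads the same on both strands. The last pair share the letters CACG, and no window of the genes named here held more than 1 of the motifs. CACGCG occurred in 5 of the 8 windows, those of Notch2, Jag1, Jag2, Dll4 and Dll1, against 9.27% of all 32851 windows. GTGGGAA and CACGTG occurred in 0 of the 8, against 6.38% and 7.15% of all windows. The windows of the Notch genes were rich in G and C, from 55.7% to 86.0% against a median of 52.7%. CACGCG occurred in 26.5% of all windows with at least 65% G and C, a content that 4 of the 8 Notch windows reached. The 100-base stretches below run 5′ to 3′ on the gene's strand, end before the start of transcription, and carry the motif in capitals. That of Jag2 lies after the start and is not printed. The windows of Adam10, Adam17 and Dlk2, genes of the wider pathway that passed the test, were searched likewise, and only that of Adam10 held a match, CACGTG 64 bases before the start.
Notch2, chr3:98013438-98013537, plus strand: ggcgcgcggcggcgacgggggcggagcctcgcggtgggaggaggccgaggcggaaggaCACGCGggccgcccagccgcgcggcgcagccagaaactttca
Jag1, chr2:137116671-137116770, minus strand: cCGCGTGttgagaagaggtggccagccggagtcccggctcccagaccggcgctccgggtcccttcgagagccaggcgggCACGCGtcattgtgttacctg
Dll4, chr2:119325542-119325641, plus strand: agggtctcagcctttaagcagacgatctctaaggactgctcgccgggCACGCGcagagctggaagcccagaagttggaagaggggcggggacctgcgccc
Dll1, chr17:15376948-15377047, minus strand: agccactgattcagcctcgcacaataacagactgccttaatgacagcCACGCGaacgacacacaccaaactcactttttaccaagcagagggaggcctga
Adam10, chr9:70678871-70678970, plus strand: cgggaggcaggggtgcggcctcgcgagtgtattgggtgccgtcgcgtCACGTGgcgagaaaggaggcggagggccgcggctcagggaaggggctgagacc
In the stretch of Jag1 the motif stands once on each strand. A match describes the letters only, and binding was not measured.

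The rest of the pathway was taken from a list of 53 further genes, of which 50 were analysed here. Of the 50, Adam10 and Adam17 rose, Dlk2 fell and 47 did not pass, against 5.85% higher and 4.97% lower over all genes. The median log2 change of the 50 was -0.02. Adam10 encodes the metalloprotease that makes the first, ligand-dependent cut in Notch receptors. Its log2 values were 8.36, 8.43, 8.47, 8.41 and 8.11 in unexposed mice 1 to 5 and 8.91, 8.76, 8.73, 8.80 and 8.78 in exposed mice 1 to 5. All exposed mice stood above all unexposed mice, as they did for 5.89% of all genes. Adam10 was 1.36-fold higher in exposed mice, a log2 change of 0.44 with a 95% interval from 0.24 to 0.65 (limma adjusted p = 0.011), and it passed in every one of the 19 alternatives (adjusted p 0.00279 to 0.0431).

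Adam17, a related protease best known for shedding tumour necrosis factor and ligands of the epidermal growth factor receptor, had log2 values of 7.81, 8.16, 7.94, 7.86 and 7.67 in unexposed mice 1 to 5. The values of exposed mice 1 to 5 were 8.47, 8.61, 8.13, 8.29 and 8.20. Only exposed mouse 3 fell within the unexposed range, below unexposed mouse 2. Adam17 was 1.37-fold higher in exposed mice (log2 change 0.45, 95% interval 0.18 to 0.72, limma adjusted p = 0.0366). It lost its call in 7 of the 10 fits with 1 mouse left out, and kept it when exposed 3, exposed 5 or unexposed 2 was omitted (adjusted p 0.0255 to 0.0846). The call was also lost without exposed mice 1 and 3 together (adjusted p = 0.0542). Of the γ-secretase subunits measured (Psen2, Ncstn, Aph1a, Aph1b, Aph1c and Psenen), none passed.

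Dlk2, a membrane protein related to the Delta family that lacks the domain by which canonical ligands engage Notch, had log2 values of 5.49, 5.95, 5.92, 6.28 and 6.04 in unexposed mice 1 to 5. In exposed mice 1 to 5 they were 5.55, 5.52, 5.33, 5.16 and 5.60. Unexposed mouse 1 lay among the exposed mice and the other unexposed mice above all of them. The unexposed mean of Dlk2 was 1.42 times the exposed mean (log2 change -0.50, 95% interval -0.82 to -0.19, limma adjusted p = 0.0472). With 1 mouse left out it passed only without unexposed mouse 1 (adjusted p 0.0136 to 0.111). It also missed the threshold after a further quantile normalization (adjusted p = 0.0529), with equal array medians (adjusted p = 0.0552), with array weights (adjusted p = 0.0611) and without exposed mice 1 and 3 (adjusted p = 0.0981). Its relative Dlk1 differed by -0.34 (95% interval -0.79 to 0.10, limma adjusted p = 0.34), and Notch4, the receptor of endothelium, by 0.07 (95% interval -0.14 to 0.29, limma adjusted p = 0.716).

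No other target gene of the pathway passed. In the 7 measured (Hes2, Hes3, Hes5, Hes6, Hes7, Hey2 and Nrarp), unexposed means ran from 3.73 (Hes3) to 5.85 (Hes6). Those of Hes2, Hes3, Hes5 and Hey2 lay below the array medians of 5.10 to 5.18. Whether such signals stood above background is not known. Of the 7, 4 had higher and 3 lower means in exposed mice, with log2 differences from -0.08 to 0.20. Nrarp, a feedback inhibitor that Notch itself switches on, had the largest of these, 0.20, with 4 of 5 exposed mice above all unexposed mice (95% interval -0.01 to 0.42, limma adjusted p = 0.233). Rbpj, the DNA-binding partner of all Notch receptors, differed by -0.14 (95% interval -0.33 to 0.06, limma adjusted p = 0.387). Its log2 values ran from 6.80 to 6.89 in unexposed and from 6.55 to 6.87 in exposed mice, so that 3 exposed mice lay below and the other two within the unexposed range. Of 5 genes that modify the sugars of Notch receptors, of 12 measured genes of the nuclear complex and of 12 genes of ligand endocytosis and ubiquitin transfer, 0 passed in either direction.

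**Figure D2:**
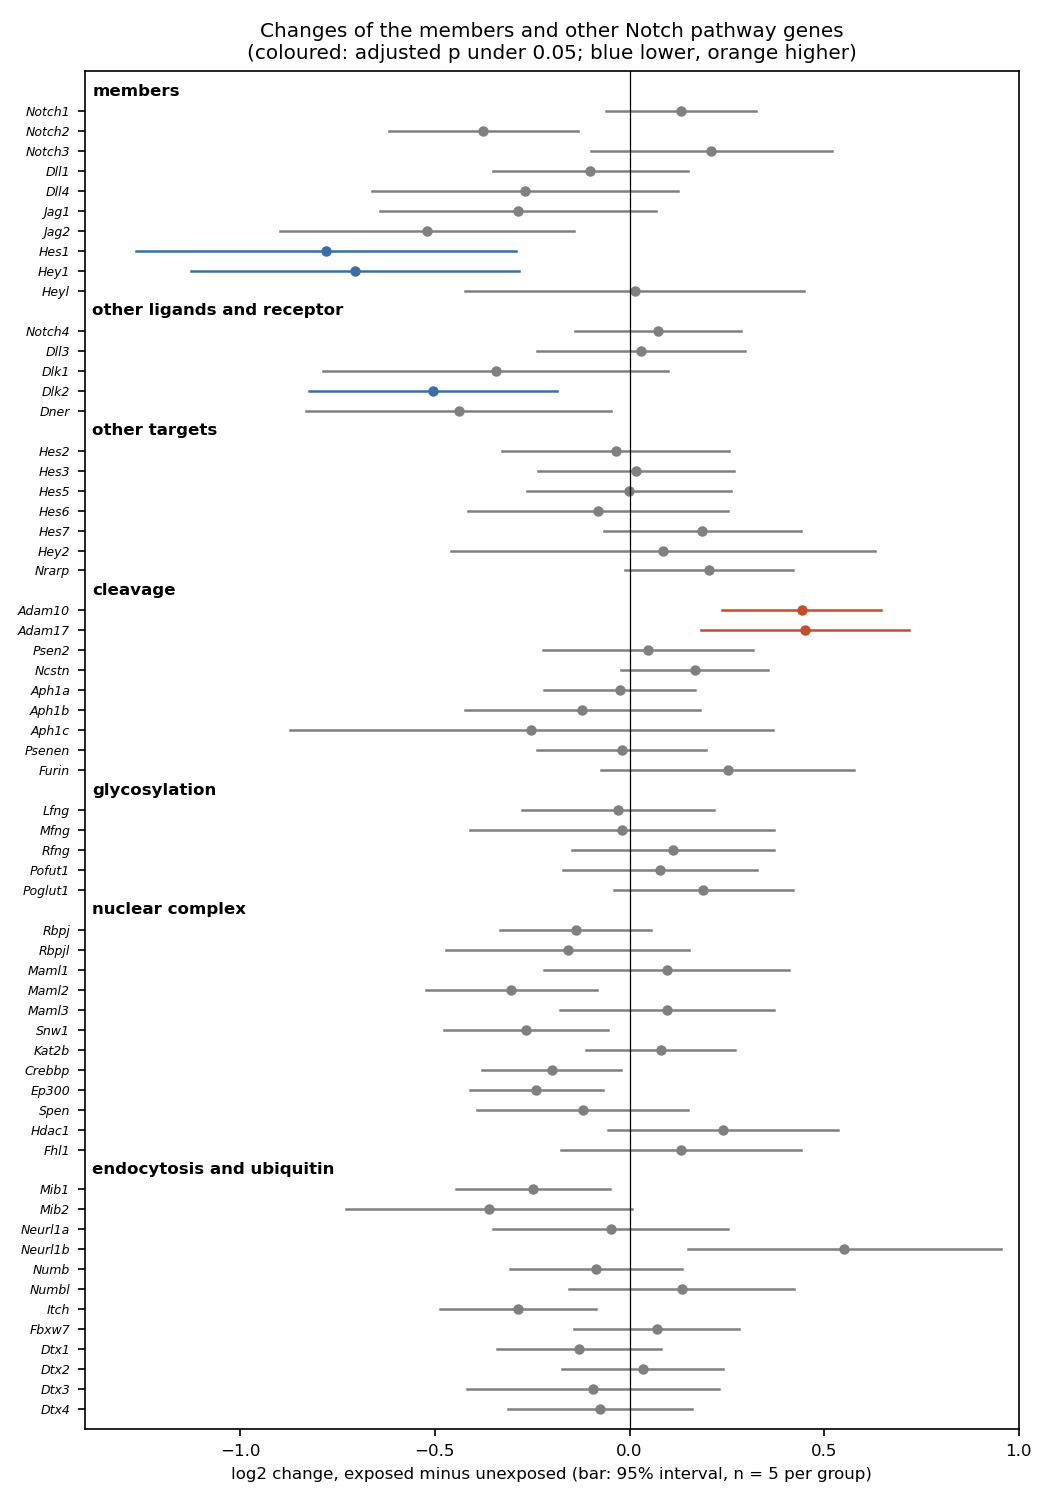
Log2 change (exposed minus unexposed) of the 10 Notch genes and of 50 other pathway genes, grouped by role, with 95% intervals from limma and n = 5 per group. Hes1, Hey1 and Dlk2 (blue) passed as lower and Adam10 and Adam17 (orange) as higher at an adjusted p under 0.05, and grey genes did not pass.

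**Figure D3:**
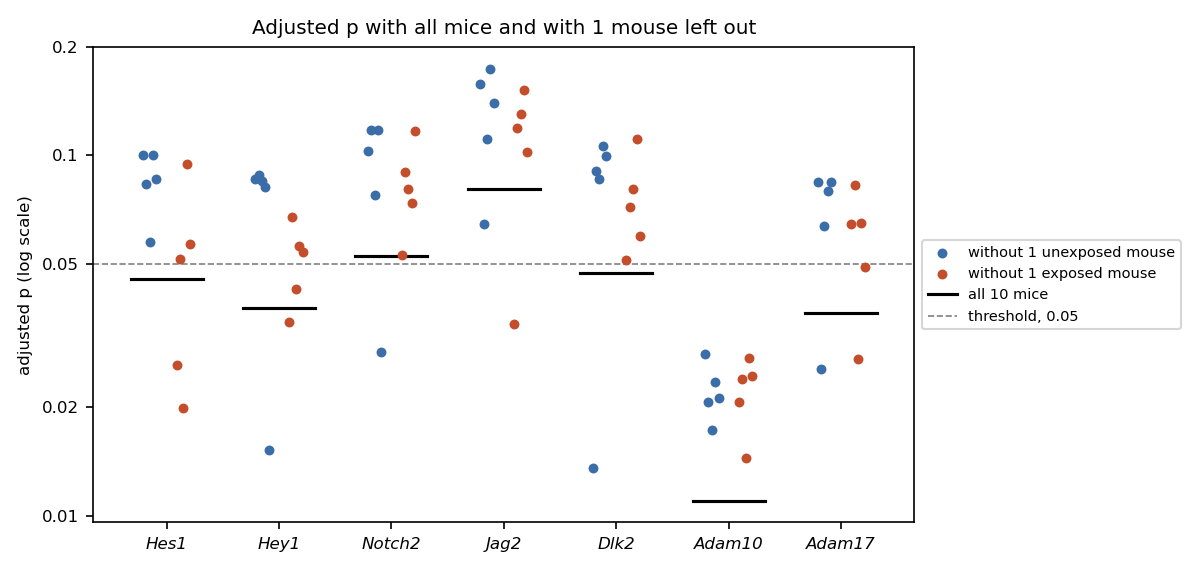
Adjusted p (log axis) of 7 genes in the fit of all 10 mice (black line) and in each fit with 1 mouse left out (points, blue for an unexposed and orange for an exposed mouse). All points of Adam10 lie under the dashed threshold of 0.05, while those of the other genes lie on both sides of it.

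In pooled tissue, fewer cells of a type and less RNA per cell cannot be told apart, and the marker genes of several cell types differed between the groups. Each level here is the mean log2 value of a list's measured genes. Secretory epithelial genes, which sit above the labelled tissue, averaged 11.7 to 11.9 in unexposed and 5.21 to 11.3 in exposed mice. Of these 10 genes 2 passed as lower, against 4.97% of all genes, namely Sec14l3 (-4.03) and Bpifb1 (-3.44). All 10 had lower means, and 7 had every exposed mouse below every unexposed mouse, against 5.06% of all genes. Ciliated genes averaged 7.02 to 7.36 and 4.77 to 7.38. Against 4.97% of all genes, 3 of 12 fell, led by Cdhr3 (-3.77) and Sntn (-3.64). Of the 12, 10 had lower means, while Mcidas (0.69) and Ccno (0.58) had higher means without passing. For Mcidas all exposed mice stood above all unexposed mice. Basal genes averaged 7.39 to 7.78 and 7.72 to 8.93, and 3 of 9 rose, namely Krt14 (4.31), Dsg3 (3.96) and Krt17 (1.86), against 5.85% of all genes. The other basal genes did not pass, and 4 of the 9 had lower means, among them Krt15 (-0.52), Trp63 (-0.40) and Ngfr (-0.12). None of 6 genes shared by epithelial cells passed, with Krt8 the highest in signal (0.36). Macrophage genes rose in 8 of 10 cases, against 5.85% of all genes, led by Ms4a7 (2.10) and Cd68 (1.79). They averaged 6.95 to 7.54 in unexposed and 7.91 to 8.82 in exposed mice. Lyz2 had a lower mean without passing (-0.34), with 4 of 5 exposed mice below all unexposed mice. Cartilage genes fell in 3 of 11 cases, against 4.97% of all genes, with Matn1 (-1.56) and Matn3 (-1.19) in front. All 11 had lower means, and the list averaged 7.79 to 8.86 and 6.41 to 8.54. Fibroblast genes rose in 3 of 10 cases, against 5.85% of all genes, led by Col1a1 (0.87) and Mfap5 (0.74). They averaged 9.62 to 9.85 and 9.81 to 10.3, and Dcn (-0.14), Fap (-0.12) and Dpt (-0.07) had lower means without passing.

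Some of these levels are set beside single Notch genes here. Within the exposed group, Hes1 and the secretory mean put the mice in the same order, from mouse 1 (secretory mean 11.3) through mice 2 (10.7), 5 (9.81) and 4 (9.52) to mouse 3 (5.21). The basal mean gave that order as well (8.93, 8.89, 8.82, 8.77 and 7.72). The ciliated and pan-epithelial means did not, apart from mouse 1 as the highest and mouse 3 as the lowest. Exposed mouse 3, lowest for Hes1 and Jag1, also had the lowest pan-epithelial mean, 8.27 against 8.93 to 9.26 in the other exposed mice. Jag2 was lowest in exposed mouse 4 instead (5.08). The part of the epithelial share in the values of Hes1, Jag1 and Jag2 was not tested. None of the vessel marker genes passed as lower after exposure. Endothelial means were 6.15 to 6.70 in unexposed and 6.30 to 7.21 in exposed mice, with 1 of 15 genes higher (Tek, 0.46) and 0 lower. Arterial genes averaged 5.85 to 5.94 and 6.05 to 6.21, with 2 of 7 higher (Nrp1, 0.63, and Gja4, 0.53). Mural genes averaged 8.67 to 9.43 and 9.02 to 9.55, with 1 of 12 higher (Kcnj8, 1.13). Over the 3 lists 4 of 34 genes rose and 0 fell, against 5.85% and 4.97% of all genes, and 7 of the 34 had lower means without passing, among them Efnb2 (-0.31) and Bmx (-0.31). Exposed mouse 5, lowest for Hey1, also had the lowest cartilage mean, 6.41 against 7.16 to 8.54 in the other exposed mice. Unexposed mouse 5, lowest of its group for Hey1, had a cartilage mean of 8.67, near the top of the unexposed range of 7.79 to 8.86. The part of the vessel share in the values of Hey1 and Dll4, and of the cartilage share in those of Hey1, was not tested.

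**Figure D4:**
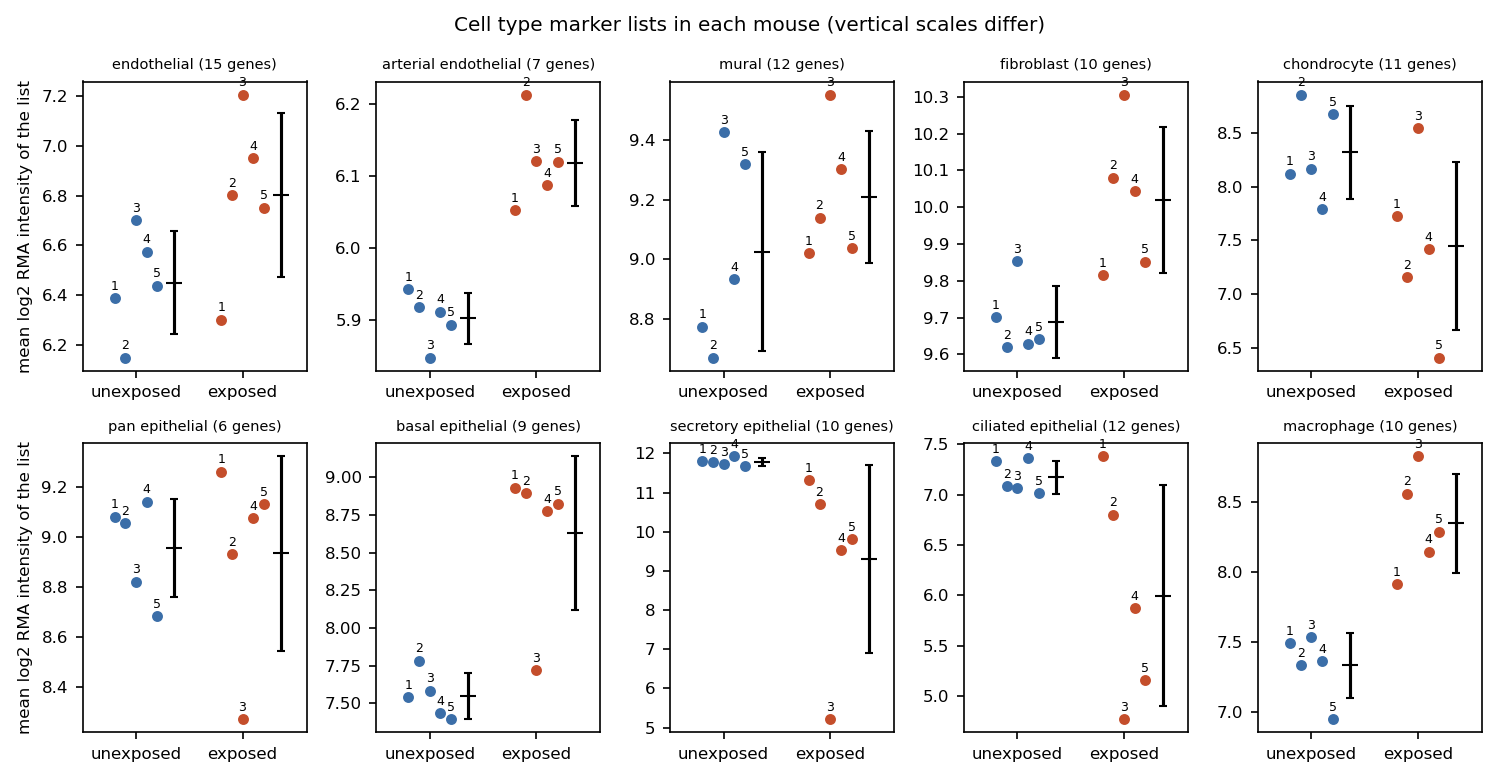
Mean log2 RMA intensity of 10 cell type marker lists in each mouse, points numbered by mouse, with the mean ± SD of 5 mice in black; vertical scales differ. Exposed mouse 3 is the lowest exposed mouse for all 4 epithelial lists, and the macrophage means of the groups do not overlap.

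The genes whose values over the 10 mice were most like those of Hes1, among 19383 named genes compared by Pearson's r, were Exph5 (0.998), which encodes an effector of vesicle transport, the small GTPase gene Rac3 (0.99) and the lipid transfer protein gene Stard10 (0.987). Exph5 went from a mean of 6.003 to 4.89 and Rac3 from 7.74 to 6.93, and both fell (limma adjusted p = 0.0445 and 0.0298). Stard10 went from 7.77 to 7.07 without passing (limma adjusted p = 0.0556). Those most like Hey1 were Nr3c1, the glucocorticoid receptor gene (0.961), Lin52, a subunit of a cell cycle repressor complex (0.96), and the Wnt receptor gene Fzd3 (0.955). Of these Lin52 and Fzd3 fell, by 0.52 and 0.95 on the log2 scale (limma adjusted p = 0.0264 and 0.00927), and Nr3c1 differed by -0.29 (limma adjusted p = 0.127). No gene stood on both short lists. Each correlation is the highest of many over 10 arrays that share the difference between the groups, and serves as a description.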

How the data were processed

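RNA from laser-captured tissue of 10 mice was hybridised to Affymetrix arrays, 1 per mouse. Per the submitters' processing notes, the authors summarised probe sets by RMA in Partek 6.6; the deposited values are taken to be log2 intensities from that method and their range, and the RMA settings are unknown here. Of 41345 probe sets, 23521 had 1 gene symbol in the platform annotation, 1814 had several, and 16010 stayed unnamed. A gene's value was the mean over its probe sets with that 1 symbol. Exposed and unexposed mice were compared by limma 3.58.1 (R 4.3.3; lmFit, eBayes, no covariate), two-sided, with adjustment over 22180 genes. In simulated data of 22180 genes for this comparison, 87% of changes of 1 log2 unit and 98% of changes of 2 were recovered. The simulation gave both groups the spread of the unexposed mice. Recovery is likely lower for genes that varied more in exposed mice, as Hes1 did (SD 0.54 against 0.17). No member changed by as much as 1 log2 unit, so recovery of changes of their size was not simulated. Exact permutation tests used all 252 relabellings.

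The members and lists were chosen with earlier results of these data known. All 10 members were named. Of the other pathway genes, those called were named, and Rbpj, Notch4, Dlk1 and Nrarp whatever their values; further ones appear only to show what a group holds, or as the text says. Each marker list gave up to 2 called genes with the largest changes, or its brightest gene where none was called, and each called member the 3 genes most like it. Further marker genes were named to show others of their list, mainly those that went the other way. Alternatives were a further quantile normalization, equal array medians, each probe set alone or only the brightest, 2 filters on dim genes, trend and robust options of eBayes, array weights, a block for the mouse number, omission of each mouse in turn and of exposed mice 1 and 3 together, and an adjusted p under 0.01. Precision is limited by the 5 arrays per group. Tables and figures were made in Python 3.11.15 with pandas 2.3.3 and matplotlib 3.10.9.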

Additional observations from a re-analysis of the deposited data

Results flagged for a closer look

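In groups of 5 mice, a value was marked where its gap to the nearest other mouse took up most of the group's range, by Dixon's 95% critical value of 0.71. Chance marks about 1 in 20 groups, and 7 of the 54 groups examined were marked. Hey1 was marked in both groups for the mouse numbered 5, at 5.79 in exposed mouse 5 (6.48 to 6.67 in the others) and at 6.60 in unexposed mouse 5 (7.20 to 7.34 in the others). Notch1 was low in exposed mouse 2, at 6.52 (6.71 to 6.78 in the others). Jag1 was high in unexposed mouse 4, at 7.86 (7.28 to 7.43 in the others). Heyl was low in unexposed mouse 1, at 6.26 (6.91 to 7.13 in the others). Notch4 was high in exposed mouse 3, at 6.34 (6.02 to 6.11 in the others). The basal epithelial mean was low in exposed mouse 3, at 7.72 (8.77 to 8.93 in the others).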

How the results depend on the processing

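No Notch member was called higher under any alternative run. Members called lower numbered 1 with equal array medians (Hey1), 4 with genes under the median mean left out (Hes1, Hey1, Jag2 and Notch2; fewer genes tested), 0 at an adjusted p under 0.01, and 0 to 3 with 1 mouse left out. Other pathway genes called higher numbered 1 without exposed mice 1 and 3, 0 at an adjusted p under 0.01, and 1 to 3 with 1 mouse left out. Other pathway genes called lower numbered 6 and 4 with the stricter and the milder filter on dim genes and 4 with trend and robust settings. They numbered 0 with equal array medians, array weights, the replicate block, exposed mice 1 and 3 left out or an adjusted p under 0.01, and 0 to 1 with 1 mouse left out. After a further quantile normalization the gene called lower was Itch in place of Dlk2. Apart from the dim-gene filters, the cause of these moves was not tested. Of the single-gene changes, Dll1 turned to 0.0108 without exposed mice 1 and 3. Heyl turned to -0.0292 with array weights and ranged from -0.14 to 0.13 with 1 mouse left out. The mouse numbers do not pair the mice: the correlation of same-numbered deviations ran from -0.05 to 0.13, and only mouse 1 of the exposed group correlated best with its own number. With that number as a replicate block, 0 members were called higher and 2 lower, 2 other pathway genes higher and 0 lower, and the adjusted p was 0.00623 for Hey1 and 0.11 for Dlk2. The filters on dim genes gave no value for Dll1 and Dlk1, and the stricter also none for Dll4 and Nrarp. Signal over background could not be assessed.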

Other observations

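A further probe set is annotated to both Dll4 and Gm14207 and was not used for the gene values. Its log2 values ran from 4.26 to 5.21 in unexposed and from 4.30 to 5.09 in exposed mice, with means of 4.60 ± 0.37 and 4.62 ± 0.31 (SD, n = 5 each). The groups overlapped fully, and the difference of 0.02 lay opposite in sign to that of the Dll4 probe set used, -0.27.

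Itch, an E3 ubiquitin ligase that acts on Notch, and the histone acetyltransferases Crebbp and Ep300, coactivators of the Notch nuclear complex and of many other factors, had all 5 exposed mice below all 5 unexposed mice, 3 of the 50 pathway genes against 5.06% of all genes. Their log2 differences were -0.29, -0.20 and -0.24, and none passed (limma adjusted p = 0.0695, 0.153 and 0.0748). Neurl1b, an E3 ligase that promotes ligand endocytosis, had the largest positive difference of the pathway, 0.55 (limma adjusted p = 0.0812), and passed without exposed mouse 3. These genes were chosen after their values were seen.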
